A study of Bos taurus with 8 samples.

Results

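Cytosolic ribosomal protein genes encode the protein parts of the ribosome outside mitochondria, and their transcripts were followed here in the lungs of newborn calves. Members were genes whose bovine symbol is RPL or RPS with a number and at most a letter or L suffix, together with RPLP0, RPLP1, RPLP2 and RPSA and without the RPS6K kinases. A member needed a probe that the scanner software marked as clearly over background in 4 or more of the 8 animals, and its brightest probe stood for it. The RefSeq gene table held 82 such symbols, of which 76 had a probe matched by accession. All 76 genes and all 246 of their probes passed the filter, among 9867 genes and 35636 probes measured in all. The genes RPL10L, RPL22, RPL34 and RPS14 and the pseudogene entries RPL15P and RPS27P had no matched probe and were not analysed here.

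The animals were 4 cloned Holstein calves with respiratory failure and 4 naturally conceived, healthy Holstein calves, each with 1 array of total lung RNA labelled with the dye Cy3. All 8 carry an age label of 4 days. According to the series description the clones died by that age whereas the healthy calves were slaughtered, so conception, illness and manner of death cannot be told apart. The donor cells of the clones are not described in the sources used here, nor is it stated whether the clones share 1 donor. The arrays of the clones were on 1 slide in 1 scan and those of the normal calves on another, so slide and group cannot be told apart.

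In the ribosome the small subunit reads the messenger RNA and the large subunit joins amino acids. Each subunit needs nearly every one of its proteins in a matched amount, and their genes are usually expressed together. Many of these transcripts begin with a run of pyrimidines, through which the growth-controlling kinase mTOR sets how strongly they are translated. Ribosomal protein transcripts are abundant in all tissues and more so in growing cells.

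All values are log2 intensities relative to the 75th percentile of their array, and a difference is the clone mean minus the normal mean. On the clone arrays 78.8% to 80.6% of spots were well above background, against 80.4% to 83.5% on the normal arrays. The markers fixed for alveolar cells were well above background in all 8 animals, for all 7 type II genes and all 6 type I genes measured. Spike-in controls, which are added RNAs, were higher on clone arrays by a median of 0.67. The sources used here do not state whether both groups received the same amount of spike-in per amount of lung RNA, so a sign relative to the spike-ins holds only if they did. Clones 1 and 3 stood apart from the other animals, with array weights of 0.117 and 0.0988 in limma, against 1.94 and 1.55 for clones 2 and 4 and 1.80 to 4.27 for the normal calves.

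Ribosomal protein transcripts were higher in the clones on this scale almost without exception, and the shift was nearly the same size from gene to gene, although relative to the spike-ins it turned to a median of -0.13. The difference was positive for 73 of 76 genes, with a median of 0.55, a 1.46-fold difference. The median over all 9867 genes was -0.02, and 4774 of them were positive. No single member passed the test, as adjusted p-values lay between 0.119 and 0.983 (limma, 4 against 4 animals). Over all probes 63 of 35636, or 0.177%, passed at an adjusted p under 0.05, and 18 of 9867 genes, or 0.182%. With limma's trend and robust settings 20 members passed, against 0.410% of all probes, and with array weights 73, against 31.3%. The array weights were estimated from these same arrays and gave clones 1 and 3 only 0.117 and 0.0988. The 20 were all higher in clones, and of the 73, 71 were higher and RPL15 and RPS27L were lower.

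Taken without adjustment, 71 members had a p under 0.05 and were higher in clones, against 6.37% of all genes. RPS27L was the sole member with such a p that was lower, against 6.58% of all genes. These counts depend on the scaling. Taking both directions together, 72 of 76 members had such a p here and 73 with median centring. Only 2 had it with quantile normalization, 2 in the authors' deposited table and 3 relative to the spike-ins. In 68 members all 4 clones were above all 4 normal calves, and in 1 all were below. The same held for 5.05% of all genes in the higher direction and for 4.78% in the lower direction. The 76 genes were measured in the same 8 animals, so these counts are not 76 separate observations.

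**Figure D1:**
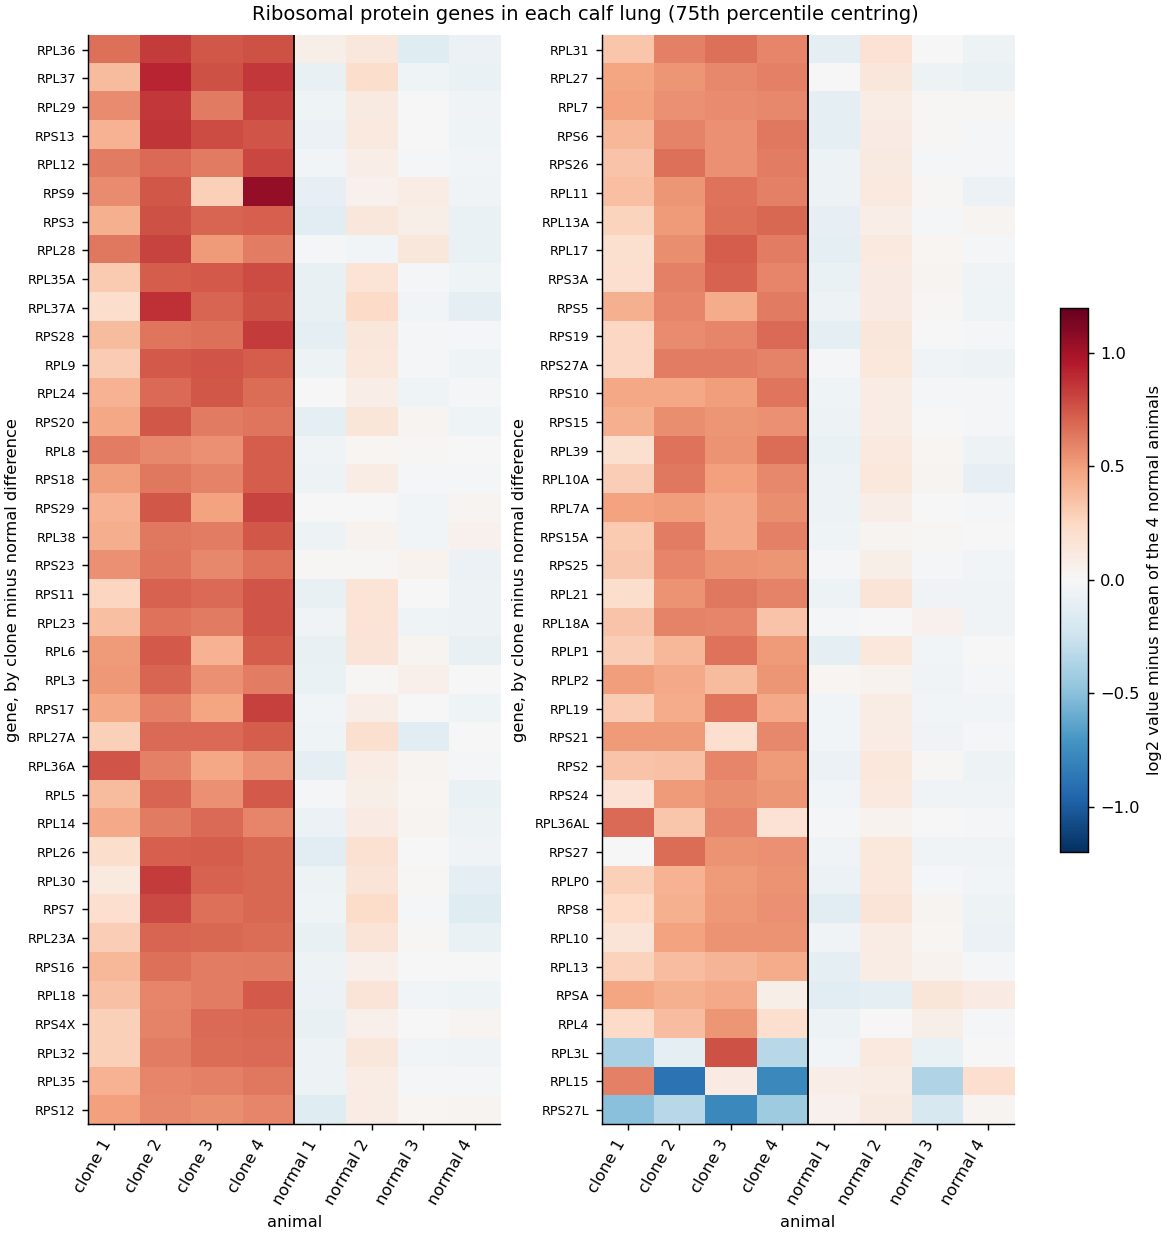
Each cell is the log2 value of a gene in an animal minus the mean of that gene over the 4 normal animals, with clones left of the black line and normal calves right of it. Genes run from the highest to the lowest difference, 73 of 76 being positive on the 75th percentile scale (5 of 76 relative to the spike-ins), and RPL3L, RPL15 and RPS27L close the second column.

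The 4 clones did not contribute alike. The median over the members, set against the mean of the normal calves, was 0.36, 0.61, 0.59 and 0.63 in clones 1 to 4. It was -0.06, 0.10, -0.01 and -0.04 in normal animals 1 to 4. Every clone was thus above every normal calf, and clone 1 was nearest to them. Clone 1 was the lowest of the clones in 61 of 76 genes, and normal animal 2 the highest of the normal calves in 66. The members varied little, with a median SD of 0.15 in clones and 0.09 in normal calves, against 0.53 and 0.16 over all genes. Members were among the brightest probes, and their SDs were not compared with those of other probes of like level.

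Whether single genes passed depended on clones 1 and 3. Without clone 1, 55 of 76 members were called, against 7.19% of all probes, and the median difference was 0.62. Without clone 3 only RPL12 was called, against 1.27% of all probes. With clones 1 and 3 left out together, a choice made after seeing the data, 70 members passed as higher and RPL15 as lower, against 31.8% of all probes.

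A measure without percentile centring is the share of the summed processed signal of an array that fell on the 246 member probes. This share is scaled to the total of its array, so it cannot show a shift common to all probes. It was 18.6%, 22.4%, 18.6% and 22.3% in clones 1 to 4, against 16.1%, 17.0%, 16.7% and 16.0% in normal animals 1 to 4. The shares of the clones all lay above those of the normal calves, and those of clones 1 and 3 were nearest to them. These are shares of fluorescence and not of molecules.

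The large subunit contributed 45 genes and the small subunit 31. The median difference was 0.56 for the large and 0.54 for the small subunit (both below 0 relative to the spike-ins). Differences were positive for 43 of 45 and for 30 of 31 genes. The middle 50% of genes lay between 0.49 and 0.60 in the large subunit and between 0.50 and 0.60 in the small.

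**Figure D2:**
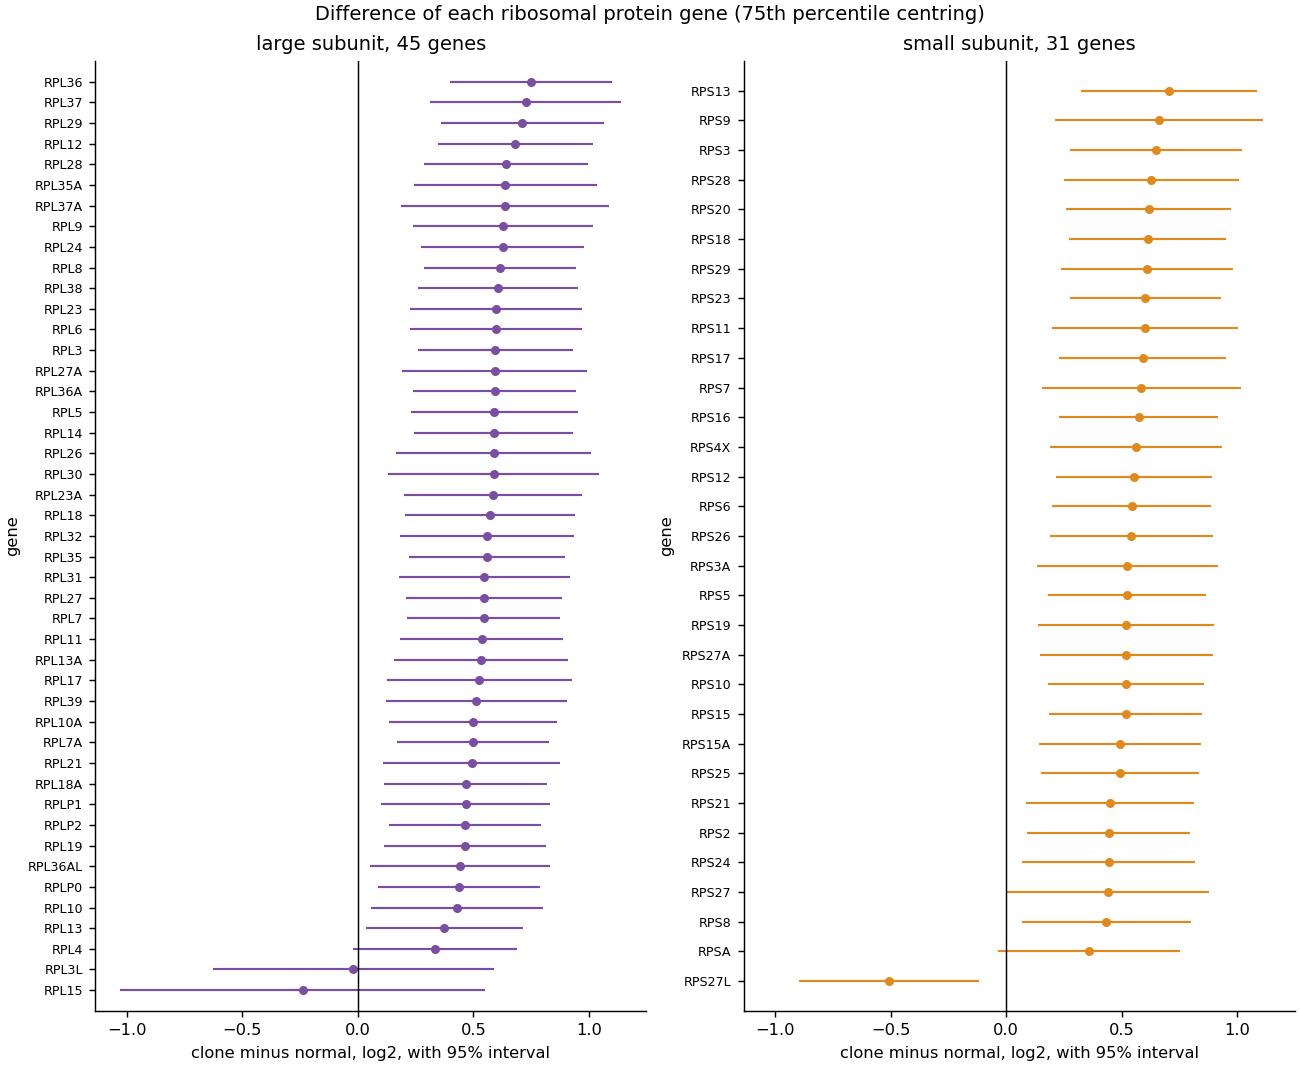
Points are the clone minus normal difference of each gene in log2 units on the 75th percentile scale, and lines are 95% intervals of the limma fit with 4 animals in each group. Apart from RPL15, RPL3L and RPS27L the points lie between 0.33 and 0.75 (relative to the spike-ins 71 of the 76 points are below 0).

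Among large subunit proteins, RPL36 had the highest difference and the smallest p. Its values were 6.58, 6.75, 6.66 and 6.68 in clones 1 to 4, against 5.99, 6.06, 5.78 and 5.85 in normal animals 1 to 4. The groups were well separated, by 0.75 (SE 0.15, limma adjusted p = 0.119), and its other probe gave 0.73.

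RPL12, which sits at the base of the stalk that recruits translation factors, was as evenly separated. It measured 6.71, 6.76, 6.71 and 6.89 in clones, against 6.06, 6.17, 6.06 and 6.05 in normal calves. The difference was 0.68 (SE 0.15, adjusted p = 0.128 by limma), and its 5 probes gave 0.61 to 0.68.

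RPL29, which also binds heparin at the cell surface, measured 7.15, 7.43, 7.21 and 7.39 in clones, against 6.53, 6.69, 6.58 and 6.54 in normal calves, a difference of 0.71 (limma adjusted p = 0.131). RPL37 measured 6.61, 7.14, 6.99 and 7.08 in clones, against 6.14, 6.44, 6.18 and 6.15 in normal calves, a difference of 0.73. In RPL37 clone 1 was the lowest clone and normal animal 2 the highest normal calf, and the groups still did not overlap.

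RPL8, a protein close to the catalytic centre, and RPL28 were also among the 8 genes with the smallest p. RPL8 measured 7.18 ± 0.08 in clones and 6.56 ± 0.03 in normal calves (log2, mean ± SD, n = 4 each), a difference of 0.62. RPL28 measured 5.18 ± 0.13 in clones and 4.54 ± 0.09 in normal calves (n = 4 each), a difference of 0.64. Their adjusted p-values by limma were 0.154 and 0.165.

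RPL3, which helps shape the peptidyl transferase centre, differed by 0.60 and RPL10, which joins the large subunit late in its assembly, by 0.43. All 6 probes of RPL3 gave positive differences, from 0.36 to 0.63, and the 5 probes of RPL10 gave 0.38 to 0.45. The value of RPL10 relative to the spike-ins was -0.25 and with quantile normalization -0.027, so its sign depends on the scaling.

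The stalk proteins RPLP0, RPLP1 and RPLP2, which contact the elongation factors, lay below the family median. RPLP0 measured 7.52, 7.65, 7.75 and 7.78 in clones, against 7.16, 7.36, 7.22 and 7.20 in normal calves, and every clone was above every normal calf. The differences were 0.44, 0.47 and 0.47 in RPLP0, RPLP1 and RPLP2 (limma adjusted p = 0.273, 0.265 and 0.232).

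RPL5 and RPL11 form, with a small ribosomal RNA, the particle that in human and mouse cells restrains MDM2 when ribosome assembly fails. They differed by 0.59 and 0.54 (limma adjusted p = 0.189 and 0.208), close to the family median. RPL4 had the smallest of the positive differences, 0.33 (95% interval -0.02 to 0.69), and its 5 probes gave 0.08 to 0.34. RPL13 differed by 0.37 on its brightest probe while its other 4 probes gave 0.43 to 0.91. These 4 genes were chosen after their values were seen.

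Among small subunit proteins, RPS13 had the highest difference. It measured 6.91, 7.35, 7.28 and 7.25 in clones, against 6.42, 6.61, 6.49 and 6.44 in normal calves. The difference was 0.71 (SE 0.17, limma adjusted p = 0.156), with 0.48 on its other probe.

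RPS23, which lies at the decoding site, measured 6.54 ± 0.05 in clones and 5.94 ± 0.05 in normal calves (log2, mean ± SD, n = 4 each), and RPS18, in the head of the small subunit, measured 7.47 ± 0.10 in clones and 6.86 ± 0.07 in normal calves. Their differences of 0.60 and 0.61 had adjusted p-values of 0.159 and 0.167 (limma).

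RPS6, the ribosomal protein phosphorylated by the S6 kinases downstream of mTOR, measured 6.99, 7.19, 7.13 and 7.22 in clones, against 6.49, 6.69, 6.60 and 6.58 in normal calves. It differed by 0.54 (limma adjusted p = 0.200), and its 7 probes gave 0.38 to 0.54. The array measures the transcript and not the phosphorylation of the protein.

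RPSA, the small subunit protein also known as the laminin receptor, was among the members with the least difference. It measured 4.06, 4.01, 4.04 and 3.65 in clones, against 3.46, 3.46, 3.72 and 3.68 in normal calves, so that clone 4 lay among the normal calves. The difference was 0.36 (95% interval -0.04 to 0.75, limma adjusted p = 0.428). RPS19, the gene most often mutated in human Diamond-Blackfan anaemia, differed by 0.52, and RPS27A, made as a fusion with ubiquitin, by 0.52. The pair was chosen after its values were seen.

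3 members stood away from the rest. RPS27L, a duplicate of RPS27, was lower in every clone than in every normal calf. It measured 2.63, 2.79, 2.36 and 2.70 in clones, against 3.18, 3.23, 2.93 and 3.16 in normal calves. The difference was -0.51 (SE 0.17, 95% interval -0.90 to -0.12, limma adjusted p = 0.255), and its other probe gave -0.62 with no overlap either. Its difference was negative under every alternative run. It passed the test relative to the spike-ins and with array weights (adjusted p = 0.0181 and 0.0313 by limma), where 28.8% and 31.3% of all probes passed. Of the 10250 probes that passed relative to the spike-ins, 10184 were lower in clones.

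RPS27 itself measured 5.72, 6.41, 6.27 and 6.28 in clones, against 5.68, 5.86, 5.69 and 5.69 in normal calves. Clone 1 lay within the normal range while the other clones were above it, and the difference was 0.44 (limma adjusted p = 0.379).

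The log2 ratio of RPS27L to RPS27 within an animal does not depend on how the array is centred. It was -3.10, -3.61, -3.92 and -3.58 in clones, against -2.51, -2.63, -2.76 and -2.53 in normal calves. All clones were below all normal calves, by 0.95 on average (exact permutation p = 0.0286, 2-sided, the smallest that 4 against 4 animals allow). Adjusted over the 3 pairs of duplicate and parent compared, p was 0.0857, which did not pass. The difference of this ratio between the groups was -0.67 with quantile normalization. RPS27L was fainter than RPS27, and on the 75th percentile scale the difference of other probes changed with level. The median of those probes was 0.03 between levels of 2 and 4 and 0.25 above 5. The part of level in the ratio was not tested.

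The other pairs gave smaller separations. RPL36AL, an intronless copy of RPL36A, differed by 0.44 and RPL36A by 0.59, and their ratio differed by -0.15 (exact permutation p = 0.257). The values of RPL36AL were 5.65, 5.30, 5.55 and 5.15 in clones and 4.95, 5.01, 4.96 and 4.96 in normal calves, so the normal calves were tightly grouped and the clones spread.

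RPL3L, the striated muscle form of RPL3, differed by -0.02 (95% interval -0.63 to 0.59), and its sign changed between settings. It measured -5.65, -5.38, -4.50 and -5.59 in clones, against -5.29, -5.14, -5.34 and -5.27 in normal calves. Clone 3 was the highest animal and the other clones were the lowest. The ratio of RPL3L to RPL3 differed by -0.61 (exact permutation p = 0.143, adjusted over 3 pairs 0.214). RPL3L was far fainter than RPL3, and the part of level in this ratio was not tested.

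RPL15 was the third exception, through 1 of its 8 probes. The brightest measured 6.73, 5.23, 6.22 and 5.35 in clones, against 6.20, 6.21, 5.76 and 6.32 in normal calves, a difference of -0.24 (95% interval -1.03 to 0.55). Clone 1 was above all normal calves on this probe, clones 2 and 4 below them all, and clone 3 within their range. With array weights this probe passed as lower (-0.81, limma adjusted p = 0.0181), as it did without clones 1 and 3 (-0.83, adjusted p = 0.0169). In those settings 31.3% and 31.8% of all probes passed. Leaving out 1 animal gave -0.52 without clone 1 to -0.023 without clone 2, and none of these passed. The other 7 probes gave 0.18 to 0.59, and the mean of all 8 gave 0.32. The values of RPL15 are therefore uncertain, since its probes disagree in sign. Ribosomal protein genes have many processed pseudogenes, and probes that could bind them were not told apart here because the probe sequences were not given.

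**Figure D3:**
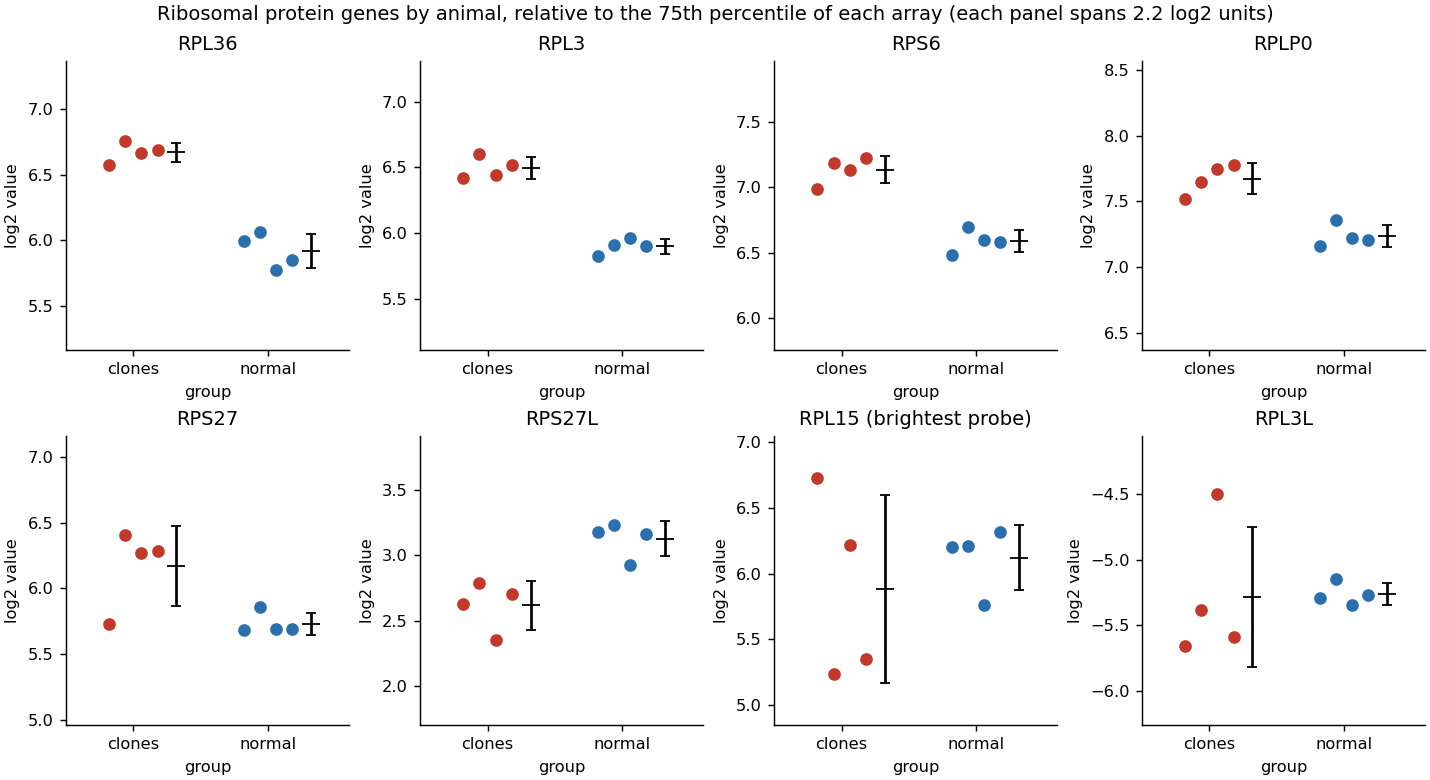
Points are log2 values of single animals relative to the 75th percentile of each array, clones left and normal calves right, and the black bars are mean ± SD of the 4 animals. In RPL36, RPL3, RPS6 and RPLP0 all clones lie above all normal calves (the mean of each but RPL36 was lower in clones relative to the spike-ins), in RPS27L all lie below, and in RPS27, RPL15 and RPL3L the groups overlap.

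Elsewhere the probes of a gene mostly agreed in sign, but not always in size. RPL13 and RPS26, picked for their spread, gave 0.37 to 0.91 and 0.14 to 0.62. In 67 genes with at least 2 probes, all probes were higher in clones in 64, all were lower in RPS27L, and the signs were mixed in RPL15 and RPL3L. Over all 246 probes 242 differences were positive, and 205 probes had no overlap in that direction, against 4.75% of all 35636 probes. The difference on the brightest and on the next probe of a gene correlated at r = 0.73 over 67 genes and at r = 0.45 over the 64 genes without the 3 exceptions. Both values come from the same arrays and the correlations are a description only. The median gap between such probes was 0.04.

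The member probes were among the brightest on the array, and on the 75th percentile scale, though not with quantile or spike-in scaling, other bright probes were also mostly higher in clones. Of the 273 probes with a mean level above 6, 49.1% were member probes. The 134 member probes above that level had a median difference of 0.55, while the other 139 had 0.34. Above a level of 5 the medians were 0.55 for 196 member probes and 0.25 for 346 others (-0.13 and -0.43 relative to the spike-ins, 0.13 and -0.10 with quantile normalization). These limits of level were chosen after the data were seen.

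The gap was wider below a level of 5 than above it, but it did not widen steadily. Between levels of 4 and 5, the median was 0.54 for 24 member probes and 0.07 for 492 others. Between 2 and 4 it was 0.41 for 14 member probes and 0.03 for 3142 others. Above a level of 6, 95.5% of member probes and 36.7% of the others were higher without overlap, and between 4 and 5 the shares were 91.7% and 9.76%. Between 2 and 4 they were only 35.7% and 6.46%, so most of the fainter member probes overlapped. By animal, above a level of 5 the member probes stood at 0.35, 0.62, 0.59 and 0.63 in clones 1 to 4 and the other probes at 0.18, 0.20, 0.55 and 0.17. In clone 3 bright probes of both kinds thus stood nearly alike, whereas in the other clones the member probes stood higher.

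**Figure D4:**
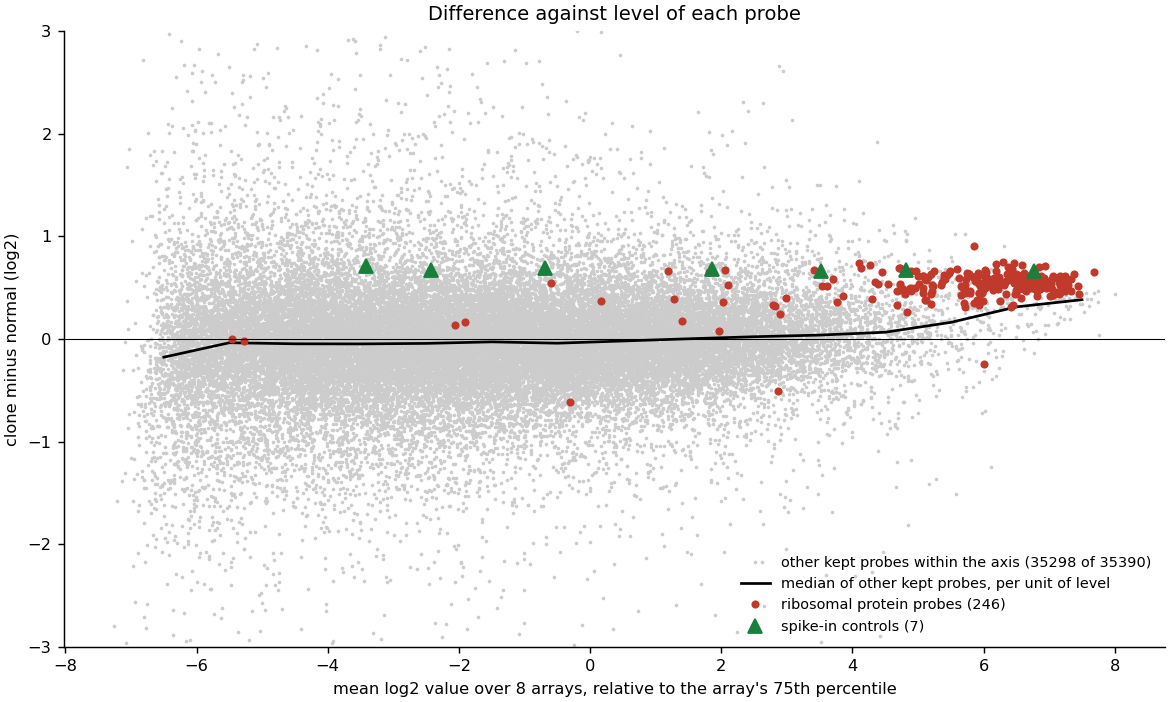
The horizontal axis is the mean log2 level of a probe over the 8 arrays and the vertical axis its clone minus normal difference in log2 units, both on the 75th percentile scale. Of the 246 member probes 242 lie above 0, most of them above the median line of the other kept probes and just below the 7 spike-in controls, which lie between 0.66 and 0.71, so that relative to the spike-ins the members are slightly lower in clones.

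The scale decided how large the family's shift appeared, and relative to the spike-ins it was negative. Quantile normalization gives every array the same set of brightest values, and it left a median of 0.11 with 66 of 76 members positive. The authors' deposited table also gave 0.11 and nearly repeats quantile normalization, with 2 members at an unadjusted p under 0.05 in both. Centring on 7 spike-ins moved the median of all genes to -0.70 and that of the members to -0.13, with 5 of 76 positive. On that scale the sole member called was RPS27L, as lower, against 28.8% of all probes, and with quantile normalization 0 members were called, against 0.168%. The gap between the members and all genes was 0.57 with 75th percentile, median or spike-in centring. Each of these centrings moves all probes of an array alike, so the equal gap was fixed in advance. With quantile normalization the gap was 0.16. With normexp background correction before percentile centring it was 0.83.

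Genes outside the symbol rule that also encode ribosomal proteins or close relatives had a median of 0.55, with 3 of 3 positive (1 of 3 relative to the spike-ins). FAU, which encodes a fusion of a ubiquitin-like protein to a small subunit protein, measured 6.35, 6.58, 6.74 and 6.77 in clones, against 6.08, 6.21, 5.94 and 6.04 in normal calves. Every clone was above every normal calf, by 0.55 on average (limma adjusted p = 0.231). The relative RPL26L1 differed by 0.78 without overlap (limma adjusted p = 0.242), and RPL22L1, a relative of RPL22, by 0.19 with overlap. The list was small, with 3 of 4 genes measured. At an unadjusted p under 0.05, 2 were higher, against 6.37% of all genes, and 0 were called by limma, against 0.182%. Only 1 had such an unadjusted p with quantile normalization, 1 in the authors' deposited table and 0 relative to the spike-ins.

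Elongation factors and other genes listed for an oligopyrimidine start had a median of 0.40, with 11 of 12 measured members positive (1 of 12 relative to the spike-ins). Of the 12, 0 were called by limma, against 0.182% of all genes. At an unadjusted p under 0.05, 6 were higher and 1 was lower, against 6.37% and 6.58% of all genes. Taking both directions together, 7 of 12 had such a p here. Only 2 had it with quantile normalization, 2 in the authors' deposited table and 1 relative to the spike-ins. Several of these genes were bright, and they were not compared with other genes of like level. EEF1A1, the factor that delivers aminoacyl-tRNA, measured 7.27, 7.44, 7.56 and 7.57 in clones, against 6.88, 7.04, 6.96 and 6.96 in normal calves, a difference of 0.50 (limma adjusted p = 0.230). EEF1G, a subunit of its exchange factor, differed by 0.87 (adjusted p = 0.107 by limma), again with every clone above every normal calf. EEF1E1, which belongs to the aminoacyl-tRNA synthetase complex despite its symbol, differed by -0.75 (adjusted p = 0.248 by limma), with every clone below.

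Initiation factors were divided, with 17 of 30 positive and a median of 0.05. EIF4B, which stimulates the helicase EIF4A, measured 3.60, 3.99, 3.63 and 3.79 in clones, against 2.80, 2.90, 2.99 and 2.72 in normal calves. Its difference of 0.91 came nearest to the threshold (SE 0.17, limma adjusted p = 0.0907). The subunits EIF3H and EIF3D of the scaffold EIF3 differed by 0.71 and 0.56 (limma adjusted p = 0.141 and 0.237). Of the 30, 0 were called by limma, against 0.182% of all genes, and at an unadjusted p under 0.05, 4 were higher and 1 was lower. At that p 6.37% of all genes were higher and 6.58% were lower, and whether counts this small differ from those shares was not tested.

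Genes that build ribosomes had a median on the other side of 0. Of 36 ribosome assembly genes 23 were lower in clones, with a median of -0.15, and of 13 RNA polymerase I genes 10 were lower, with a median of -0.26. No member of either list was called by limma, against 0.182% of all genes, and 1 of each was higher at an unadjusted p under 0.05, against 6.37%. Calls depended on the setting: 12 of 36 assembly and 5 of 13 polymerase genes passed with spike-in centring, against 28.8% of all probes. With array weights 20 and 6 passed, against 31.3%, and without clones 1 and 3, 22 and 6 passed, against 31.8%. NPM1, the nucleolar chaperone, was at 0.53 (limma adjusted p = 0.323), while the small subunit assembly factors PNO1 and TSR1 were at -0.67 and -0.84 (limma adjusted p = 0.381 and 0.425). POLR1D, a subunit shared by RNA polymerases I and III, was at 0.51 and POLR1B, the second largest subunit of polymerase I, at -0.43. The median of the assembly genes was 0.22, -0.61, 0.13 and -0.48 in clones 1 to 4, so the clones disagreed, and without clones 1 and 3 it was -0.55. That of the polymerase genes was 0.15, -0.05, -0.32 and -0.30 in clones 1 to 4, and over all animals it was -0.095 with array weights.

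Genes of translation control had a median of 0.05 over 17 genes measured of 26 listed. The kinase EIF2AK2, which shuts initiation down on double-stranded RNA, was at 0.81 (limma adjusted p = 0.313), with log2 levels of 0.21, -0.35, -0.15 and 1.13 in clones 1 to 4, against -0.69 to -0.54 in normal calves. Clone 4 was the highest and the groups did not overlap. AKT1S1, an inhibitory partner of mTOR, and EIF4EBP1, which blocks the cap-binding factor, were at 0.40 and 0.35 (limma adjusted p = 0.418 and 0.535). In this list 0 genes were called by limma, against 0.182% of all genes, and 1 of 17 was higher at an unadjusted p under 0.05, against 6.37%.

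**Figure D5:**
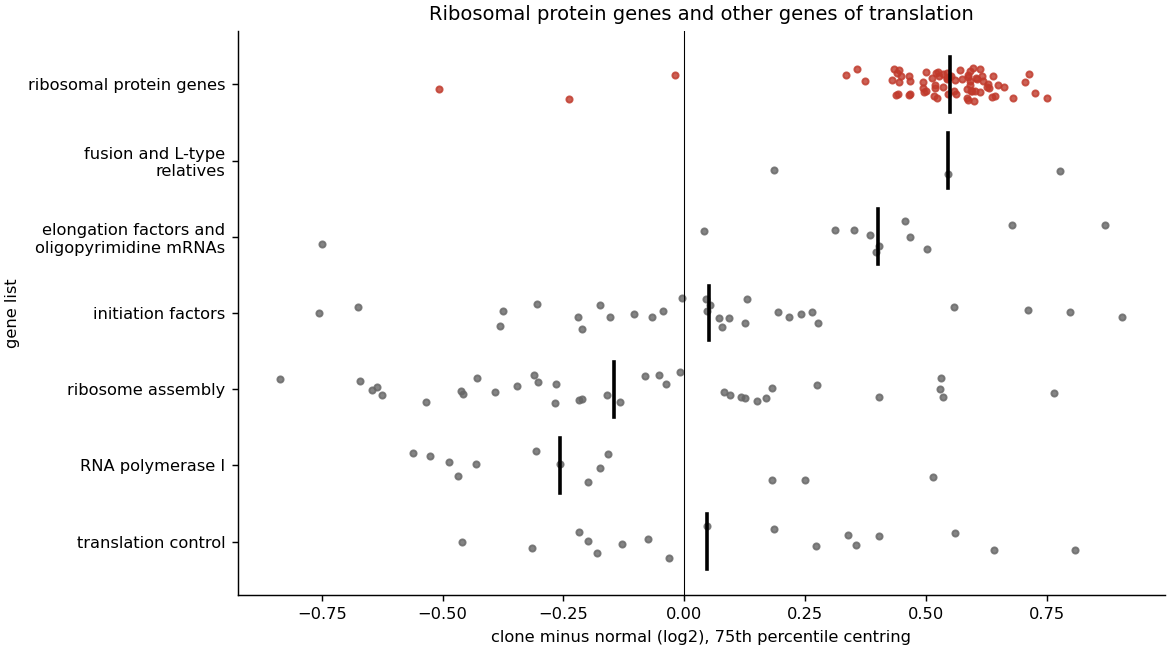
Each point is a gene, the horizontal axis is its clone minus normal difference in log2 units on the 75th percentile scale, and the black bar is the median of the list. Medians are 0.55 for ribosomal protein genes, 0.55 for their fusion and L-type relatives, 0.40 for elongation factors and oligopyrimidine mRNAs, 0.05 for initiation factors, -0.15 for ribosome assembly, -0.26 for RNA polymerase I and 0.05 for translation control (all 7 are below 0 relative to the spike-ins).

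Several cell type lists also leaned in a single direction, although 0 markers were called by limma, against 0.182% of all genes. The smallest adjusted p was 0.119, for HOPX (limma), and 4774 of all 9867 genes were higher in clones. In bulk RNA fewer cells of a type and less RNA per cell cannot be told apart. All 8 measured markers of dividing cells had a higher mean in clones. Their summed linear level was 4.62 to 16.1 in clones and 2.33 to 3.34 in normal calves. PLK1 was the brightest of them in every animal and so weighed most in these sums. Only PLK1 and CCNB1, 2 of the 8, were higher without overlap, against 5.05% of all genes. In the others clone 3 lay within or below the normal range. Macrophage markers were lower for 4 of 4, with sums of 53.2 to 214 in clones and 171 to 259 in normal calves. Fibroblast markers were higher for 5 of 6, with sums of 102 to 163 in clones and 77.4 to 106 in normal calves. Airway markers were lower for 5 of 5, with sums of 22.5 to 32.4 in clones and 30.05 to 53.1 in normal calves. Of the other lists, 1 of 7 T and NK cell, 1 of 5 neutrophil, 2 of 5 endothelial, 3 of 4 B cell and 7 of 7 erythroid markers were higher. The erythroid markers had adjusted p-values of 0.601 or more by limma. Their median, relative to the normal mean, was 1.69, -0.42, 0.12 and 0.04 in clones 1 to 4. That of the B cell markers was 1.83, -0.26, -0.10 and -0.34, so clone 1 stood far above the other clones in both lists. Type II and type I alveolar markers were higher for 4 of 7 and 3 of 6. No marker in these lists lacked signal above background throughout a group. The median of the dividing cell markers was 3.65, 1.56, 0.54 and 2.27 above the normal mean in clones 1 to 4, and clone 1, the highest, had the lowest ribosomal protein median. The part of these cells in the ribosomal protein result was not tested.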

How the data were processed

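Per the file headers, the deposited scanner files were written by Agilent Feature Extraction from 1-colour bovine arrays, and the intensity values used were processed signals with background already subtracted and no normalization between arrays. The submitters' processing notes name version 10.7. The authors' deposited value table holds log2 values whose columns share a 75th percentile of 10.54 and medians of 7.89. How they were made alike is not stated, and the table served as an alternative only. Its results nearly equal those of quantile normalization, with 60 changed probes in both, so the table is not a separate check. Control spots and outlier-flagged spots were left out. The log2 signal was set relative to the 75th percentile of its array and spots of a probe were averaged; probes well above background on at least 4 of 8 arrays were kept. Accessions were matched without version to RefSeq genes on ARS-UCD2.0. The array design names another build, so no coordinates are given. Of 43653 probes, 23492 obtained a symbol. The test was that of limma 3.58.1 (R 4.3.3) with group as the sole term, with Benjamini-Hochberg adjustment over 35636 probes and a threshold of 0.05; the fit was tested on simulated data. Named genes were the 8 members with the smallest p, the 3 highest and the 3 lowest differences, stalk and duplicate genes with their parents, RPS6, and up to 3 genes with the smallest p of each other list. 1 listed gene is not reported here. The members and lists were chosen with earlier results of these data known. Same-numbered animals were not paired: their deviations correlated at -0.203 to 0.0991. Alternatives covered normalization, background correction, filters, test settings, left-out animals and probe choice; normexp ran on median signals in place of mean signals. The number of arrays limits the precision.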

Additional observations from a re-analysis of the deposited data

Results flagged for a closer look

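In a group of 4 animals a value was singled out when its gap to the nearest other animal exceeded Dixon's critical share of the range of the group, which chance alone does in about 1 in 20 groups. Over the 76 members 23 of 152 groups met this, and the members were measured in the same animals. Clone 1 stood apart in the median of the ribosomal protein genes, at 0.36 above the normal mean against 0.59 to 0.63 in the other clones. It also did so in RPL10, at 7.01 against 7.33 to 7.39, and in RPS27A, at 7.43 against 7.78 to 7.80. Clone 4 stood apart in RPSA, at 3.65 against 4.01 to 4.06 in the other clones. Normal animal 2 was above the other normal animals in RPL12, at 6.17 against 6.05 to 6.06, in RPL36AL, at 5.01 against 4.95 to 4.96, in RPL37, at 6.44 against 6.14 to 6.18, and in RPS27, at 5.86 against 5.68 to 5.69.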

How the results depend on the processing

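The count of changed probes was 63, and it was 60 with quantile normalization and in the authors' deposited table. It was 10250 with spike-in centring, 0 with normexp and percentile centring, 25 with normexp and quantile normalization, 17 with the filter on all 8 arrays, 146 with trend and robust settings, and 11147 with array weights. Leaving out 1 animal gave 17 to 2562 changed probes, and leaving out clones 1 and 3, chosen after seeing the data, gave 11331. The replicate number as a block gave 13 changed probes and 0 members called, and the numbers do not pair the animals. Members called were 0, against 1 with spike-in centring, 20 with trend and robust settings, 73 with array weights, 0 to 55 without 1 animal and 71 without clones 1 and 3. The cause of these differences was not tested.

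The member median of 0.55 was 0.11 with quantile normalization, 0.12 with normexp and quantile normalization, 0.11 in the authors' table, 0.71 with normexp and percentile centring, and -0.13 with spike-in centring. Without 1 animal it was 0.52 to 0.62. The median of the relatives outside the symbol rule was 0.10 with quantile normalization, 0.11 with normexp and quantile normalization, 0.10 in the authors' table, 0.71 with normexp and percentile centring and -0.14 with spike-in centring. For elongation factors these values were 0.098, 0.096, 0.099, 0.55 and -0.28, and 0.38 to 0.49 without 1 animal. With spike-in centring the median was -0.63 for initiation factors, -0.83 for ribosome assembly, -0.94 for RNA polymerase I and -0.63 for translation control. With array weights it was -0.095 for RNA polymerase I and -0.19 for translation control. Without clones 1 and 3 it was -0.19 for initiation factors and -0.55 for ribosome assembly.

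Single genes that changed sign with spike-in centring were RPL10 at -0.25, RPL11 at -0.14, RPL13 at -0.31, RPL28 at -0.038, RPL3 at -0.085, RPL36A at -0.089, RPL36AL at -0.24, RPL39 at -0.17, RPL4 at -0.35, RPL5 at -0.090 and RPL8 at -0.065. The same held for RPLP0 at -0.24, RPLP1 at -0.21, RPLP2 at -0.22, RPS18 at -0.068, RPS19 at -0.16, RPS23 at -0.078, RPS27 at -0.24, RPS27A at -0.16, RPS6 at -0.14 and RPSA at -0.32. Outside the members it held for AKT1S1 at -0.28, EEF1A1 at -0.18, EIF3D at -0.12, EIF4EBP1 at -0.33, FAU at -0.14, NPM1 at -0.15, POLR1D at -0.17 and RPL22L1 at -0.49. With quantile normalization RPL10 was at -0.027, RPL13 at -0.043, RPL4 at -0.12, RPLP2 at -0.023 and RPL3L at 0.076. In the authors' table RPL10 was at -0.026, RPL13 at -0.042, RPL4 at -0.12, RPLP2 at -0.022 and RPL3L at 0.076. With normexp and quantile normalization RPL10 was at -0.036, RPL13 at -0.0066, RPL4 at -0.11, RPLP0 at -0.00045, RPLP1 at -0.029 and RPL3L at 0.045. RPL3L was at 0.0088 with median centring and between -0.28 and 0.10 without 1 animal. RPL15 was at 0.32 with the mean of its probes and passed as lower at -0.81 with array weights and -0.83 without clones 1 and 3. In the other lists, spike-in centring, array weights and leaving out clones 1 and 3 gave calls of 8, 13 and 14 of 30 initiation factors, 1, 11 and 10 of 12 elongation factors, 3, 6 and 6 of 17 translation control genes and 0, 2 and 1 of 3 relatives. Matching probes by a gene name column was not run.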
